A study of Mus musculus with 18 samples.

Results

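The clade B serpins are the mouse genes named Serpinb followed by a number. Members were taken as the array probes annotated to a single gene symbol that starts with Serpinb and a digit, with the probe of highest mean signal where a gene had several. This gave 24 genes with 1 probe each, among 19938 genes measured by single-symbol probes and 28853 probes in all. Another 3 probes carried several Serpinb symbols at once and were not members.

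Signals were measured in bulk RNA on 18 Affymetrix Mouse Gene 1.0 ST arrays in 12 groups. The high-KLF4 (OK+9MS) and low-KLF4 (OKMS) groups were mouse embryonic fibroblasts (MEFs) with a ROSA-rtTA transactivator and a Nanog-GFP reporter, in which a piggyBac transposon had delivered a doxycycline-responsive cassette of Oct3/4, Klf4, c-Myc and Sox2 linked to mCherry. The cassettes differ in the length of the Klf4 coding sequence, and the longer one gives more KLF4 protein. All these cells received doxycycline at 1 µg/mL and were sorted as mCherry+ on day 2, 4, 8 or 18. The high-KLF4 iPSC group held the clones A10 and H10, and the low-KLF4 iPSC group the clones A7 and A9. The keratinocytes were primary cultures from newborn pups at postnatal day 2, and the mESCs were both of the Nanog-GFP line 1A2. There were 2 arrays for each cassette on day 8, for each iPSC group, for keratinocytes and for mESCs, and a single array for each cassette on days 2, 4 and 18. The study names 2 independent experiments behind the day 8, mESC and keratinocyte arrays. An mCherry+ sort takes every cell that still expresses the cassette, so each such array averages a mixture, in which fewer cells of a type and less RNA per cell cannot be told apart. Against mESCs, 19 of 22 keratinocyte markers were higher in keratinocytes and all 18 pluripotent markers lower, as the labels say.

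Serpins trap proteases: a protease cuts an exposed loop that acts as bait, and the serpin then snaps shut with the enzyme bound to it. Clade B members differ from most serpins in lacking a classical secretion signal, so that most act inside the cell, where they guard against proteases that leak from lysosomes or granules or are released by neighbouring cells. In skin they are part of the balance of proteases that governs the shedding and the barrier of the epidermis, and in mouse the family has expanded into many close copies. Members on mouse chromosome 1 include Serpinb5 (maspin, a serpin that does not inhibit proteases) and Serpinb2 (plasminogen activator inhibitor 2). Those on chromosome 13 include the elastase and cathepsin G inhibitor Serpinb1a, the granzyme B inhibitor Serpinb9, the cathepsin G inhibitor Serpinb6a, and their copies.

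The members were put into classes, which were cut from the array values and are a description. A keratinocyte-type member had a mean log2 signal in keratinocytes at least 1 above the mESC mean, which is 2-fold. A reprogramming-only member was not of that type and had at least 1 mCherry+ group at least 1 above both the keratinocyte and the mESC mean. A silent member met neither rule and lay at or below its array's median on all 18 arrays. There were 6 keratinocyte-type members, 7 reprogramming-only members and 10 silent members, with Serpinb6b left over. The name reprogramming-only refers to keratinocytes and mESCs alone, since arrays of the starting MEFs were not analysed here. Genes raised during reprogramming and genes already expressed in MEFs cannot be told apart in this class. Of the 6 keratinocyte-type genes, 5 lie on chromosome 1 and 1 on chromosome 13, whereas all 7 reprogramming-only genes lie on chromosome 13. The silent genes are 6 on chromosome 1 and 4 on chromosome 13. All 24 members matched a RefSeq gene by identifier. RefSeq (GRCm38.p6) lists 12 protein-coding Serpinb genes on chromosome 1 and 16 on chromosome 13, of which Serpinb3b, Serpinb9f, Serpinb9g and Serpinb9h were not analysed here as single genes.

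**Figure D1:**
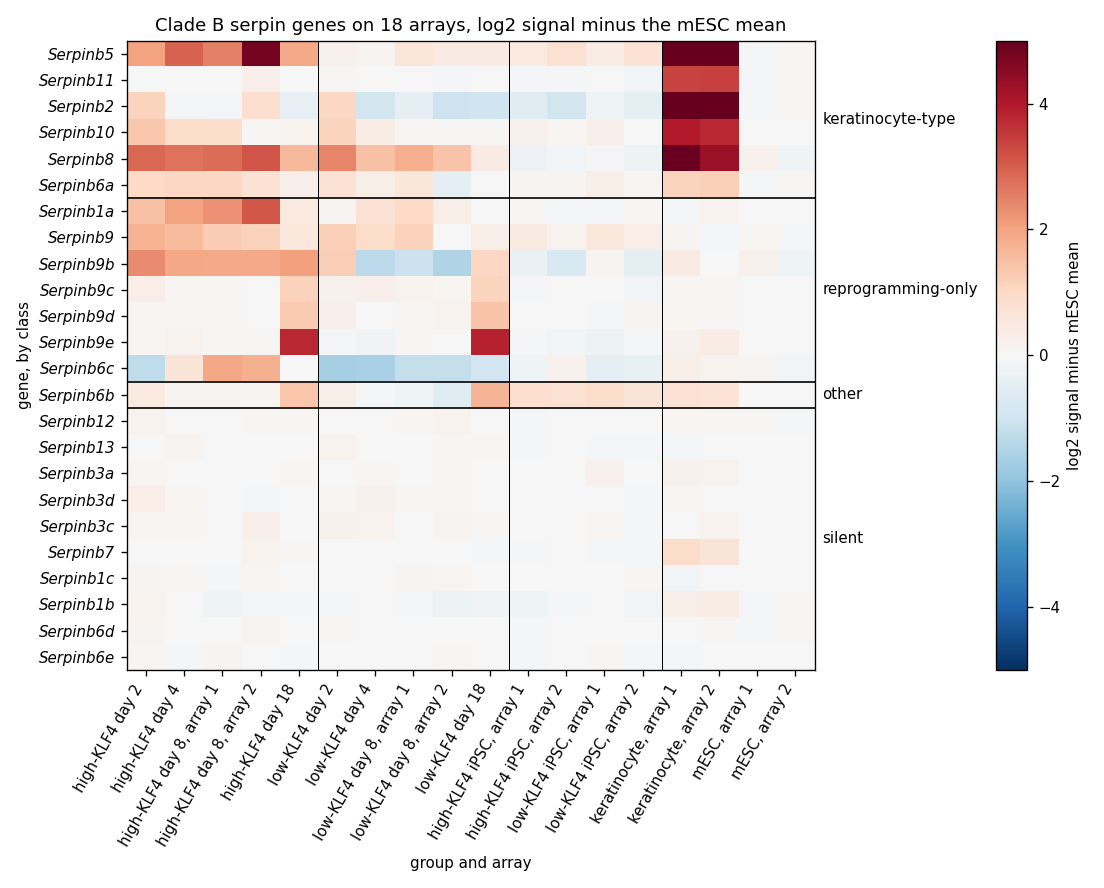
Log2 signal minus the mESC mean for 24 clade B serpin genes (rows, by class and position) on 18 arrays (columns), with arrays 1 and 2 of the iPSC groups being clones A10 and H10 and clones A7 and A9. The colour scale ends at 5 in either direction, beyond which Serpinb5 and Serpinb2 lie in keratinocytes. The keratinocyte-type rows are red in keratinocytes, several chromosome 13 rows are red mainly in mCherry+ arrays, and the 10 silent rows are near white.

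The 250 bases before the start of the genes that carry these patterns are shown next, from RefSeq (GRCm38.p6), 5′ to 3′ on the gene's strand. They are shown because some members of a class had like patterns across the groups, though the reprogramming-only class held several patterns. Capitals mark CACCC on either strand (also read as GGGTG), the core that KLF factors bind, and TGANTCA, which reads the same on both strands. TGANTCA is a loose form of the AP-1 motif, whose usual middle base is C or G, and also takes A or T there. The keratinocyte-type genes of chromosome 1 are first.
Serpinb5 (chr1:106860925-106861174, plus strand): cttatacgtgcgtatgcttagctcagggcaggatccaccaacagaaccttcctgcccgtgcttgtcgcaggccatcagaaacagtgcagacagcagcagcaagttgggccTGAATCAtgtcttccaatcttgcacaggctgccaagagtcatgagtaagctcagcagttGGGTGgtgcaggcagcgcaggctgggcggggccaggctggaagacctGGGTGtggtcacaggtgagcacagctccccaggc
Serpinb11 (chr1:107362064-107362313, plus strand): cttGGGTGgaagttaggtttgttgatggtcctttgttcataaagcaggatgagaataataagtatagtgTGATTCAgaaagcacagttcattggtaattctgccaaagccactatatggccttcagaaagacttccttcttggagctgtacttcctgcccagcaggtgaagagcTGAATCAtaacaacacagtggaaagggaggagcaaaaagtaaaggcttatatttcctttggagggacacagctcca
Serpinb2 (chr1:107511173-107511422, plus strand): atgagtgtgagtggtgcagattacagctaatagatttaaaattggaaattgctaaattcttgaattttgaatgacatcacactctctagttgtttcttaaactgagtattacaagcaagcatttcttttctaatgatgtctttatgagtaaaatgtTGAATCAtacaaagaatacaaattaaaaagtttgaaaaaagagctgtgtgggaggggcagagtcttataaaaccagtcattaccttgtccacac
Serpinb10 (chr1:107528753-107529002, plus strand): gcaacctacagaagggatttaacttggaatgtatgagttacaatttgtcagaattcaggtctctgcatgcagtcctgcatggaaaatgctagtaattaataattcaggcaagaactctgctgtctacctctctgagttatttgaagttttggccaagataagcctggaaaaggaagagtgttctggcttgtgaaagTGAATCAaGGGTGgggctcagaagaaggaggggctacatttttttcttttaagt
Serpinb8 (chr1:107589756-107590005, plus strand): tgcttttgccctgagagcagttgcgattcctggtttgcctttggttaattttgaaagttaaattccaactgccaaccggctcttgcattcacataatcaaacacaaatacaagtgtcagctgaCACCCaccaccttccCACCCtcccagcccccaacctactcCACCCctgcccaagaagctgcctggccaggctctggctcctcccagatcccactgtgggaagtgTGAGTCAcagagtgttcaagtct

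The TGANTCA motif was in all 5 of these windows, and in 5 of 6 keratinocyte-type windows once Serpinb6a of chromosome 13 is counted. It was in 0 of 6 reprogramming-only windows and in 2 of 9 silent windows (Serpinb12 and Serpinb7). Every member window that held it lies on chromosome 1. Serpinb6a and all reprogramming-only genes lie on chromosome 13, so for the reprogramming-only windows class and chromosome cannot be told apart. The middle base was G, as in the usual AP-1 motif, only in Serpinb8 and Serpinb7. In the other windows that held TGANTCA it was A or T. Over all members TGANTCA was in 7 of 22 windows, against 6.87% of 27018 windows of the same length over all genes. The CACCC core was in 13 of 22 member windows, against 51.3% of all windows, so it was about as frequent in the members as elsewhere. It was in 5 of 6 keratinocyte-type windows, 4 of 6 reprogramming-only windows and 3 of 9 silent windows. These matches are letters in a window and say nothing of binding, and 2 members, Serpinb1a and Serpinb13, were not analysed here for motifs.

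Of the reprogramming-only genes, Serpinb9b and Serpinb6c had the clearest difference between cassettes and Serpinb9d and Serpinb9e the clearest change on day 18.
Serpinb9b (chr13:33027164-33027413, plus strand): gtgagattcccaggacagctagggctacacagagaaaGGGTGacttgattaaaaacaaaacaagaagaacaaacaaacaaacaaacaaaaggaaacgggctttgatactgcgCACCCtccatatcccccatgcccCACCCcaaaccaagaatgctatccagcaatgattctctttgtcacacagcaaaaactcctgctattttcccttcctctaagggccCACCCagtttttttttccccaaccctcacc
Serpinb6c (chr13:33905192-33905441, minus strand): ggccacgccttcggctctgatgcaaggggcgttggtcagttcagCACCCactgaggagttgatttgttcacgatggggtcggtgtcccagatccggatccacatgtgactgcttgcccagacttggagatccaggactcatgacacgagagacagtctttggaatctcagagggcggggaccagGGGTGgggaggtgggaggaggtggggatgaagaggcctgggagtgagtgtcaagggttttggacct
Serpinb9d (chr13:33192705-33192954, plus strand): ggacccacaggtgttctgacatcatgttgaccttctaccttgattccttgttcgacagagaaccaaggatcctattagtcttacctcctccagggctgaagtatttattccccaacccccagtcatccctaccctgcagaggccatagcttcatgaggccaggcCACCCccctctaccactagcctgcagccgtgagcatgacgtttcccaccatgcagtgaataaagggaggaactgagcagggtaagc
Serpinb9e (chr13:33249358-33249607, plus strand): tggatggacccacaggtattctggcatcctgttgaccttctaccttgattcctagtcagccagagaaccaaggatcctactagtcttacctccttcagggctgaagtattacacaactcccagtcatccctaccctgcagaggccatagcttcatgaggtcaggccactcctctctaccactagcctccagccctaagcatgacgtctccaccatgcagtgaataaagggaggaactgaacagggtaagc

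The last pair of windows was nearly the same sequence. In a global alignment Serpinb9d and Serpinb9e were 88.2% identical, and Serpinb9e and Serpinb9g 92.9%, the highest value among 325 pairs of Serpinb windows, whose median was 41.6%. Serpinb9c, which also changed on day 18, shared less, at 59.6% with Serpinb9d and 63.0% with Serpinb9e. Serpinb9b shared 40.9% with Serpinb9d and 41.6% with Serpinb9e, no more than the median pair. Serpinb9b held 4 CACCC cores, the most of any member window, and Serpinb9e held 0.

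Keratinocytes carried the highest signals of the chromosome 1 members. Serpinb2, which inhibits the plasminogen activators, had signals of 8113 and 9076 in keratinocytes and 106 and 116 in mESCs, a log2 difference of 6.28 (SE 0.29). Serpinb5 had signals of 3366 and 3259.7 in keratinocytes and 32.3 and 36.1 in mESCs, a difference of 6.60 (SE 0.58). Serpinb8, whose human counterpart inhibits furin, had 2802 and 1835 in keratinocytes and 105 and 79.3 in mESCs, a difference of 4.64 (SE 0.23). In each of these 3 genes the arrays of both cell types were far apart and did not overlap.

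Serpinb10 and Serpinb11 were the other keratinocyte-type genes of chromosome 1. Serpinb10, known from human blood cells as bomapin, had signals of 558 and 492 in keratinocytes and 35.0 and 36.6 in mESCs (3.87, SE 0.22 on the log2 scale). Serpinb11 had 282 and 285 in keratinocytes and 26.1 and 27.9 in mESCs (3.39, SE 0.09), and lay between 24.3 and 32.0 on all 16 arrays other than keratinocytes. Keratinocytes were thus the only arrays on which Serpinb11 left its low level. The mESC signals of Serpinb5, Serpinb10 and Serpinb11 lay in the range of the silent members, between 22.3 and 45.4, and were not shown to be above background, so the differences of these 3 genes are no exact folds and may understate the change. Serpinb6a, the cathepsin G inhibitor whose loss causes deafness in mice, was bright on every array and only just inside the class, at 1829 and 1940.3 in keratinocytes and 814 and 902 in mESCs (1.14, SE 0.29).

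Over all 24 members, chosen by name and not by level, 10 were higher and 0 lower in keratinocytes than in mESCs at a limma adjusted p under 0.05. The background was 17.7% of 23410 probes higher and 20.4% lower. The median log2 difference was 0.21 over the members and 0.00 over all probes tested. Besides the 6 genes of the class, 4 members passed with small differences, which were 0.77 (SE 0.10, adjusted p = 0.000414) for Serpinb7, 0.72 (SE 0.13, adjusted p = 0.00292) for Serpinb6b, 0.33 (SE 0.10, adjusted p = 0.025) for Serpinb1b and 0.30 (SE 0.09, adjusted p = 0.0308) for Serpinb9e. Serpinb7, whose human counterpart is mutated in a skin thickening disorder, was the gene just outside the class, at 45.4 and 37.8 in keratinocytes and 24.8 and 23.9 in mESCs. Without the dimmest 30% of probes 5 members were called.

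On day 8, 5 members were higher in high-KLF4 than in low-KLF4 cells and none was lower, in limma over 2 arrays each. The background in this comparison was 2.71% of probes higher and 1.29% lower. The 5 were Serpinb5 and Serpinb8 of the keratinocyte-type class, and Serpinb9b, Serpinb6c and Serpinb1a of the reprogramming-only class. At an unadjusted p under 0.05 Serpinb2, Serpinb6a and Serpinb6b joined them, which made 8 members higher, and 9.12% of all probes were higher at that level. The median log2 difference was 0.09 over the members and -0.03 over all probes tested, so the change sat in a minority of the family. For the reprogramming-only class the levels of the same arrays helped to choose its members, so the count within that class, 3 of 7, is a description. The same holds for the 0 of 10 in the silent class, whose rule also used the day 8 arrays. In the keratinocyte-type class, chosen on other arrays, 2 of 6 were called. The fit shares its spread over all 12 groups. Over probes, the log2 difference between the 2 arrays of day 8 had an SD of 0.455 (high-KLF4) and 0.485 (low-KLF4). Between the 2 arrays of keratinocytes it was 0.232 and of mESCs 0.214. The limma p-values and intervals of day 8 may therefore understate the spread on that day.

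Serpinb5 was the keratinocyte-type gene that differed most. With high-KLF4 the signal was 139 (day 2), 261 (day 4), 196 and 951 (day 8) and 127 (day 18). With low-KLF4 the signal was 40.1 (day 2), 37.5 (day 4), 52.1 and 45.6 (day 8) and 45.0 (day 18), close to the iPSC clones at 48.4 and 58.2 (high-KLF4) and 44.7 and 55.7 (low-KLF4). Every high-KLF4 array lay above every low-KLF4 array, and every mCherry+ array below keratinocytes. The 2 high-KLF4 arrays of day 8 were far apart (SD 1.61 on the log2 scale). A limma interval from a spread shared by all groups may be too narrow for them. The day 8 difference of 3.15 (95% confidence interval 1.83 to 4.47, adjusted p = 0.0222) is thus known only loosely. It was also called against the high-KLF4 iPSC clones (3.03, SE 0.58, adjusted p = 0.00539), and high-KLF4 cells remained below keratinocytes (-2.94, SE 0.58, adjusted p = 0.00689).

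Serpinb8 differed less and was present with both cassettes. With the high-KLF4 cassette the arrays read 662 (day 2), 593 (day 4), 639.5 and 809 (day 8) and 278 (day 18). With low-KLF4 the signal was 498 (day 2), 251 (day 4), 319 and 246 (day 8) and 121 (day 18), and in the iPSC clones 74.8 and 82.1 (high-KLF4) and 84.8 and 76.6 (low-KLF4). High-KLF4 was above low-KLF4 on each day, and mCherry+ cells of either cassette were above the iPSC clones. The day 8 difference between cassettes was 1.36 (95% confidence interval 0.83 to 1.89, adjusted p = 0.0167). Against the iPSC clones of the same cassette the day 8 difference was 3.20 (SE 0.23, adjusted p = 4.85e-05) in high-KLF4 cells and 1.80 (SE 0.23, adjusted p = 0.00138) in low-KLF4 cells. Serpinb8 was the only member called higher on day 8 than in the iPSC clones with both cassettes at an adjusted p under 0.05.

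The other keratinocyte-type genes were less clear in reprogramming cells. Serpinb2 was at 107 and 199.8 with high-KLF4 and 79.9 and 54.2 with low-KLF4 on day 8, and at 239 with high-KLF4 and 227 with low-KLF4 on day 2. The day 2 values of the cassettes were close, and the day 8 difference missed the threshold at 1.15 (95% confidence interval 0.48 to 1.82, adjusted p = 0.0731). High-KLF4 cells on day 8 lay 5.87 below keratinocytes on the log2 scale for this gene (adjusted p = 4.55e-06), the widest gap of any member in that comparison.

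Serpinb10 was at 91.8 on day 2 in high-KLF4 cells and 78.1 in low-KLF4 cells, and at 65.4 and 37.6 with high-KLF4 and 37.4 and 36.9 with low-KLF4 on day 8, a difference of 0.42 (95% confidence interval -0.09 to 0.92, adjusted p = 0.424). The first high-KLF4 array of day 8 stood above the low-KLF4 arrays and the second was level with them. Serpinb6a was at 1749.6 and 1413 with high-KLF4 and 1255 and 602 with low-KLF4 on day 8, a difference of 0.85 (95% confidence interval 0.20 to 1.51, adjusted p = 0.167). Serpinb11 stayed near its floor in all mCherry+ cells, at 27.6 and 32.0 with high-KLF4 and 26.4 and 25.9 with low-KLF4 on day 8.

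**Figure D2:**
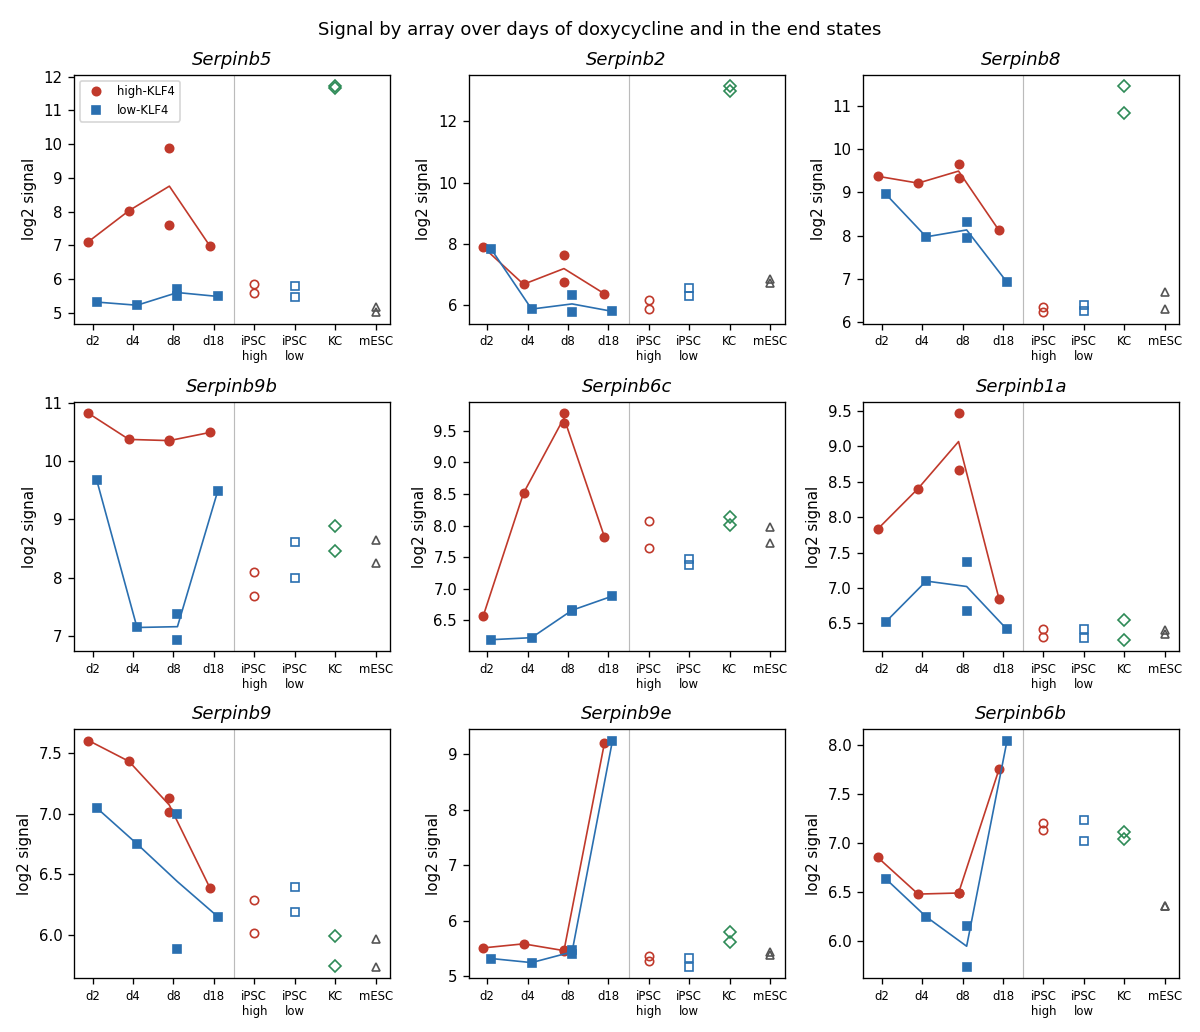
Log2 signal of 9 clade B serpin genes on every array, with days 2, 4, 8 and 18 of doxycycline at the left of each panel (high-KLF4 as red circles, low-KLF4 as blue squares, lines through group means) and iPSC clones, keratinocytes (KC) and mESCs at the right as open symbols. Vertical scales differ between panels. Serpinb9b holds in high-KLF4 cells but dips on days 4 and 8 in low-KLF4 cells, Serpinb6c and Serpinb1a peak on day 8 in high-KLF4 cells, and Serpinb9e is at 585 and 606 on day 18.

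Serpinb9b, a copy of the granzyme B inhibitor gene Serpinb9, had the widest day 8 difference between cassettes. Its high-KLF4 signals were 1805 (day 2), 1323 (day 4), 1312 and 1297 (day 8) and 1437 (day 18). With the low-KLF4 cassette they read 821 (day 2), 141 (day 4), 167 and 122 (day 8) and 720.5 (day 18). The iPSC clones had 274 and 205 (high-KLF4) and 389 and 254 (low-KLF4), keratinocytes 470.3 and 351 and mESCs 401 and 305. High-KLF4 cells thus held one level throughout, while low-KLF4 cells on days 4 and 8 lay below every other array and on days 2 and 18 above iPSC clones, keratinocytes and mESCs.

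The day 8 difference of Serpinb9b was 3.19 (95% confidence interval 2.59 to 3.80, adjusted p = 0.000688), or 9.14-fold. Against the iPSC clones of the same cassette it was 2.46 (SE 0.26, adjusted p = 0.000333) in high-KLF4 cells and -1.14 (SE 0.26, adjusted p = 0.0199) in low-KLF4 cells, so the cassettes departed from their own clones in opposite directions. The cassette difference on day 8 minus that in iPSCs was 3.60 (SE 0.37, adjusted p = 0.00539).

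Serpinb6c, a copy of Serpinb6a, was highest on day 8 with high-KLF4. With high-KLF4 the signal was 94.6 (day 2), 366 (day 4), 877 and 792 (day 8) and 226 (day 18). With low-KLF4 the signal was 73.2 (day 2), 74.9 (day 4), 100.4 and 102 (day 8) and 118 (day 18). The iPSC clones had 199.8 and 269 (high-KLF4) and 166 and 178 (low-KLF4), keratinocytes 280.1 and 258 and mESCs 253 and 211. High-KLF4 cells started below the end states and passed them on days 4 and 8, whereas every low-KLF4 array stayed below every iPSC, keratinocyte and mESC array.

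The day 8 difference of Serpinb6c was 3.04 (95% confidence interval 2.70 to 3.38, adjusted p = 5.39e-05), or 8.24-fold, with the smallest adjusted p of any member. Against the iPSC clones of the same cassette it was 1.85 (SE 0.15, adjusted p = 8.20e-05) in high-KLF4 cells and -0.76 (SE 0.15, adjusted p = 0.00949) in low-KLF4 cells. The cassette difference on day 8 exceeded that in iPSCs by 2.61 (SE 0.21, adjusted p = 0.00167). Serpinb9b and Serpinb6c were the 2 members called in this interaction, against a background of 0.671% of probes higher and 0.154% lower. Leaving out 1 array at a time gave 2 to 6 members, both of these among them each time, with 6 without the first low-KLF4 array of day 8 and 5 without the first high-KLF4 one. At an unadjusted p under 0.05 there were 7 members, all higher, with 6.29% of all probes higher.

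Serpinb1a, which inhibits neutrophil elastase and cathepsin G, was at one low level in every end state. With the high-KLF4 cassette the arrays read 228 (day 2), 338 (day 4), 406 and 706 (day 8) and 115 (day 18). With low-KLF4 the signal was 91.9 (day 2), 137 (day 4), 165 and 102 (day 8) and 85.3 (day 18). The iPSC clones had 86.0 and 79.2 (high-KLF4) and 78.7 and 85.6 (low-KLF4), keratinocytes 77.2 and 93.4 and mESCs 84.7 and 81.5. The keratinocyte arrays overlapped those of the pluripotent cells, and the 2 high-KLF4 arrays of day 8 were the highest of the 18. The day 8 difference between cassettes was 2.04 (95% confidence interval 1.40 to 2.69, adjusted p = 0.00678), and high-KLF4 cells on day 8 exceeded keratinocytes by 2.66 (SE 0.28, adjusted p = 0.000297). The class rule had asked for a level above keratinocytes, so the comparison with keratinocytes is a description.

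Serpinb9 itself was lower on day 18 than on day 2 with both cassettes. Its high-KLF4 signals were 195 (day 2), 173 (day 4), 139.9 and 129 (day 8) and 83.9 (day 18). With low-KLF4 the signal was 132 (day 2), 108 (day 4), 128 and 59.0 (day 8) and 71.0 (day 18), against 63.6 and 53.5 in keratinocytes and 62.6 and 53.3 in mESCs. The day 8 arrays of low-KLF4 were about 2-fold apart, and the cassette difference of 0.63 (95% confidence interval -0.07 to 1.33, adjusted p = 0.374) was not called. In low-KLF4 cells the single day 4 array of Serpinb9 lay above its day 18 array, unlike that of Serpinb9b. On day 8 the second low-KLF4 array was its lowest and the first was near the day 2 value. Whether Serpinb9 had a low point on that day cannot be read from these arrays.

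Against keratinocytes the day 8 high-KLF4 cells had 4 members higher and 8 lower, with 13.1% of all probes higher and 11.4% lower. The 4 higher members were Serpinb1a, Serpinb9b, Serpinb6c and Serpinb9, with differences of 2.66, 1.68, 1.63 and 1.20 on the log2 scale, and all are of chromosome 13. The 8 lower ones were 5 of the 6 keratinocyte-type genes (all but Serpinb6a), together with Serpinb7, Serpinb6b and Serpinb1b. In low-KLF4 cells 0 members were higher than keratinocytes and 11 lower, against 13.5% and 12.4% of all probes, and at an unadjusted p under 0.05 there were 12 in either direction, with 35.4% of all probes. Serpinb9b, at -1.51, and Serpinb6c, at -1.41, were lower than in keratinocytes with the low-KLF4 cassette, the opposite side from high-KLF4. The 2 comparisons share the keratinocyte arrays. Those arrays had also helped to place the members in their classes. The split of these calls by class and chromosome is therefore a description, as are the values against keratinocytes given above for single genes.

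**Figure D3:**
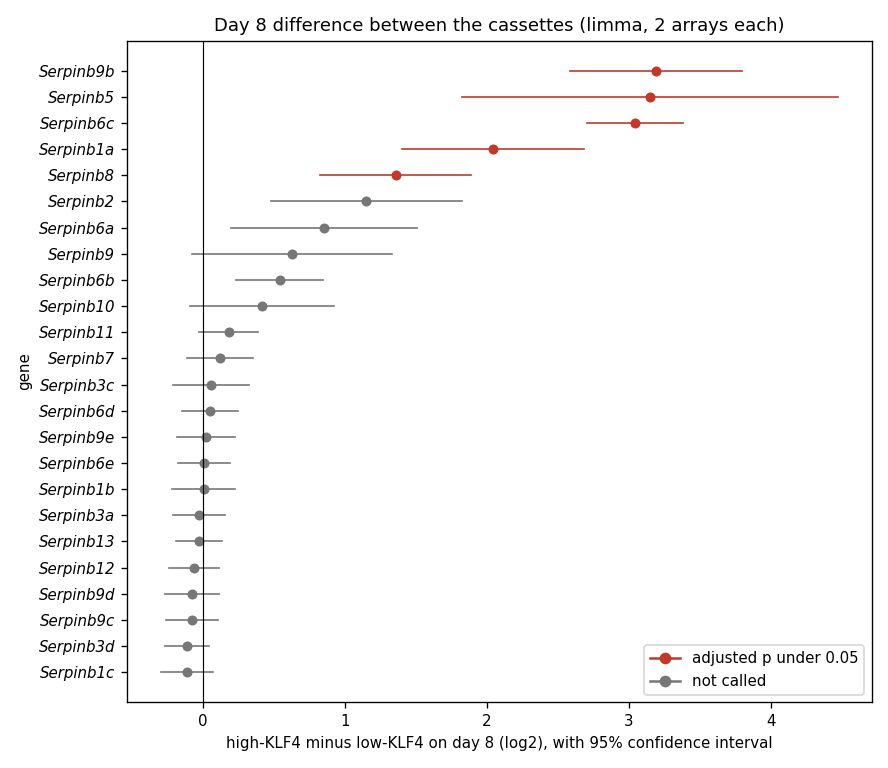
Day 8 difference in log2 signal between high-KLF4 and low-KLF4 cells (2 arrays each) for 24 clade B serpin genes. Points are limma estimates with 95% confidence intervals from a spread shared by all groups, red where the adjusted p is under 0.05. Serpinb9b, Serpinb5 and Serpinb6c lie above 3, Serpinb1a and Serpinb8 at 2.04 and 1.36, and the silent genes between -0.11 and 0.12.

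The cassette difference had 1 array per cassette on days 2, 4 and 18, so those values have no replicate check. The number of members at least 2-fold higher with high-KLF4 was 3 (day 2), 5 (day 4), 6 (day 8) and 2 (day 18), and 0 members were 2-fold lower on any day. The background was 1% of probes up and 0.0641% down for day 2, 1.64% up and 0.641% down for day 4, 2.56% up and 0.688% down for day 8, and 0.867% up and 0.094% down for day 18. Serpinb5 was over 2-fold higher on all 4 days, by 1.79, 2.80, 3.15 and 1.5 on the log2 scale on days 2, 4, 8 and 18. Serpinb9b differed by 1.14, 3.23, 3.19 and 1.00 on the same days, and the day 18 value is just under 2-fold. Serpinb6c differed by 0.37, 2.29, 3.04 and 0.94, with a day 2 value under 2-fold.

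In the fit over days, with 5 high-KLF4 and 5 low-KLF4 arrays and day as a block, 0 members passed an adjusted p of 0.05 in limma. The background there was 0.158% of probes higher and 0.00427% lower. At an unadjusted p under 0.05 there were 8 members, with 8.71% of all probes higher at that level. All 8 were higher in high-KLF4: Serpinb5 by 2.48 (SE 0.47), Serpinb9b by 2.35 (SE 0.40), Serpinb6c by 1.94 (SE 0.42), Serpinb1a by 1.43 (SE 0.29), Serpinb8 by 1.11 (SE 0.16), and Serpinb2, Serpinb6a and Serpinb9 by 0.75, 0.60 and 0.55. Their adjusted p-values were between 0.076 and 0.262.

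Against the iPSC clones of their own cassette, day 8 high-KLF4 cells had 6 members higher and 1 lower, with 13.5% and 14.7% of all probes. The 6 were Serpinb8, Serpinb5, Serpinb1a, Serpinb9b, Serpinb6c and Serpinb2, which exceeded the clones by 1.17 (SE 0.29, adjusted p = 0.018). Low-KLF4 cells had 1 member higher, Serpinb8, and 3 lower (Serpinb6b, Serpinb9b and Serpinb6c), with 8.43% and 10.8% of all probes. The iPSC clones as a whole differed from mESCs in 1 member, Serpinb6b, which was higher by 0.79 (SE 0.12, adjusted p = 0.00884), with 2.02% of probes higher and 2.28% lower. The other 23 members did not pass the threshold between iPSC clones and mESCs, and the call for Serpinb6b was lost without either mESC array.

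A separate set of members changed on day 18, with both cassettes alike. This comparison of day 18 with day 8, over 10 mCherry+ arrays with the cassette as a term, was chosen after the values had been seen, and the day 18 levels had also placed 3 of the genes in their class. Serpinb9e had signals of 585 with high-KLF4 and 606 with low-KLF4 on day 18, against 44.4 and 43.9 with high-KLF4 and 44.6 and 42.3 with low-KLF4 on day 8. On all 16 arrays other than day 18 it lay between 36.0 and 55.4. Its day 18 level was thus far above mCherry+ cells of earlier days, the iPSC clones, keratinocytes and mESCs, with a difference from day 8 of 3.77 (SE 0.10, adjusted p = 5.38e-06).

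Serpinb9d and Serpinb9c, further copies of Serpinb9, moved the same way from dim levels. Serpinb9d was at 62.0 with high-KLF4 and 67.2 with low-KLF4 on day 18, and between 24.1 and 29.5 on the other 16 arrays (1.29, SE 0.08, adjusted p = 0.000338 against day 8). Serpinb9c was at 72.5 with high-KLF4 and 69.6 with low-KLF4 on day 18, and between 29.3 and 41.0 elsewhere (1.04, SE 0.08, adjusted p = 0.00101). Serpinb9c was the reprogramming-only gene just inside its class, at 1.09 above the higher of keratinocytes and mESCs.

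The 3 probes that carry several symbols of Serpinb9d, Serpinb9e, Serpinb9f and Serpinb9g behaved like Serpinb9e. They had signals of 549.8, 511 and 474 in high-KLF4 cells on day 18 and 553, 504 and 526 in low-KLF4 cells, and lay between 38.1 and 56.1 on the other 16 arrays. These genes are copies whose probe and transcript sequences were not compared here. Signal may be shared between their probes, so which copy carried it cannot be read from these arrays. The same holds less strictly for the other chromosome 13 copies, including Serpinb9b, Serpinb6c and Serpinb1a.

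Serpinb6b, a mouse inhibitor of granzyme A, was also higher on day 18. Its signal was 215 with high-KLF4 and 264 with low-KLF4 on day 18, against 89.6 and 89.9 with high-KLF4 and 71.3 and 53.2 with low-KLF4 on day 8 (1.68, SE 0.20, adjusted p = 0.00408). It was at 147 and 140.4 in high-KLF4 iPSCs, 150.4 and 130.0 in low-KLF4 iPSCs, 138 and 132 in keratinocytes and 82.0 and 82.1 in mESCs. It missed the reprogramming-only class narrowly, at 0.97 above keratinocytes. Unlike the Serpinb9 copies, it was also above mESCs in the iPSC clones.

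Serpinb8 moved the other way, with day 18 below day 8 by 1.29 (SE 0.23, adjusted p = 0.0152) on the log2 scale, a call that was lost without either day 18 array. In all, 4 members were higher and 1 lower on day 18 than on day 8, against 5.16% and 6.67% of probes. Among 14 measured trophoblast markers 10 were also higher on day 18 and 0 lower, and their summed signal was 18771 with high-KLF4 and 17101 with low-KLF4 on day 18. On day 8 that sum was 5533 and 6312 with high-KLF4 and 4467 and 4239.6 with low-KLF4, and it lay between 8267 and 9306 in the iPSC clones and was 9185 and 9596 in mESCs. Of 18 pluripotent markers, a list that includes the cassette genes Pou5f1 (Oct3/4) and Sox2, 14 were higher and 1 lower on day 18. Of 12 endothelial markers 4 were higher and 1 lower, and of 20 leukocyte markers 2 were higher. The part of these cell types in the day 18 signals was not tested.

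**Figure D4:**
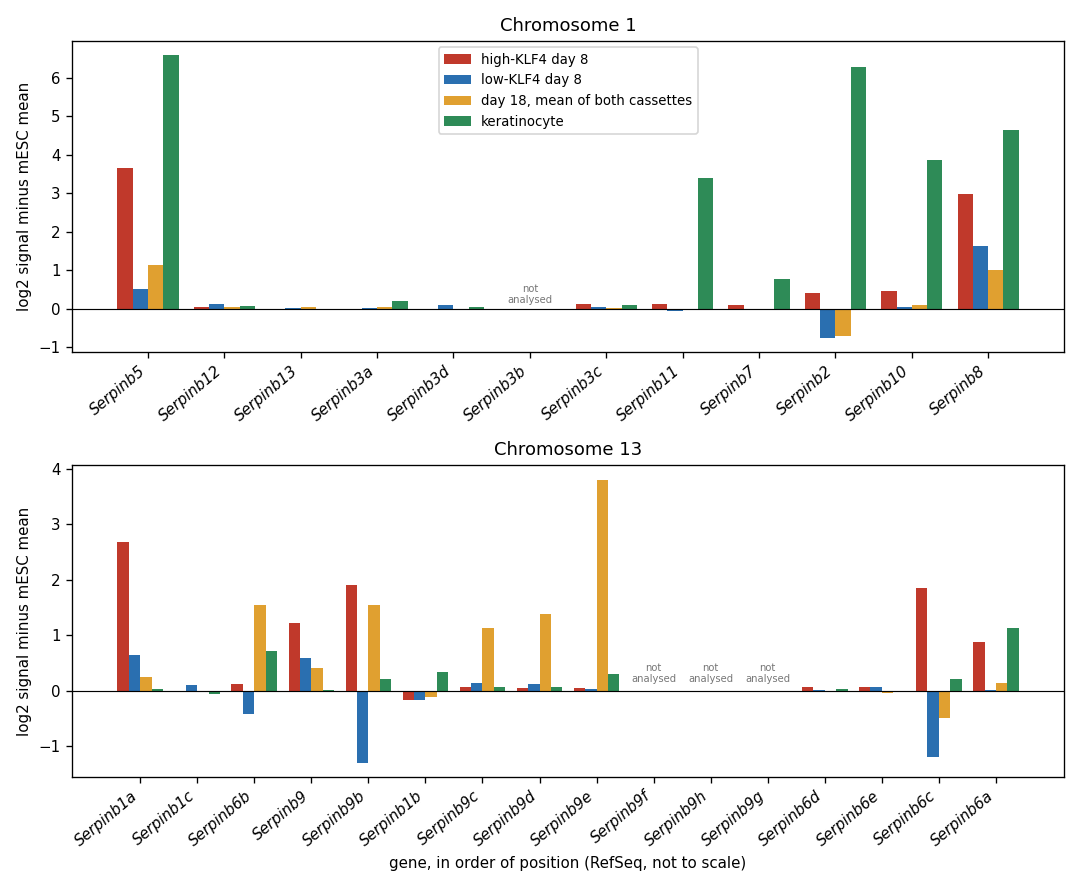
Log2 signal minus the mESC mean for Serpinb genes in their order along chromosomes 1 and 13 (RefSeq order, spacing not to scale), in high-KLF4 day 8 cells, low-KLF4 day 8 cells, day 18 cells (mean of both cassettes) and keratinocytes. Bars start at 0, the mESC mean. On chromosome 1 keratinocytes stand highest at both ends of the row, and on chromosome 13 the day 18 bars stand over the neighbours Serpinb9c, Serpinb9d and Serpinb9e.

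Position within the clusters divided the members further. On chromosome 1 the keratinocyte-type genes stood at both ends, with Serpinb5 first and Serpinb2, Serpinb10 and Serpinb8 last, and Serpinb11 inside. Serpinb12, Serpinb13 and the Serpinb3 copies measured as single genes, between Serpinb5 and Serpinb11, were silent, as was Serpinb7 between Serpinb11 and Serpinb2. On chromosome 13 the day 18 genes Serpinb9c, Serpinb9d and Serpinb9e were neighbours, and the high-KLF4 genes Serpinb1a, Serpinb9b and Serpinb6c were spread over the row with silent genes between them. Between cassettes on day 8, 0 of 4 flanking genes of chromosome 1 and 0 of 3 measured ones of chromosome 13 were called. That is near the background of 2.71% of probes higher and 1.29% lower. Between keratinocytes and mESCs, 2 of 4 flanking genes of chromosome 1 were higher, Vps4b by 0.47, and 1 of 3 of chromosome 13 was lower, Nqo2 at -1.52.

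The 10 silent members were Serpinb12, Serpinb13, Serpinb3a, Serpinb3d, Serpinb3c and Serpinb7 on chromosome 1 and Serpinb1c, Serpinb1b, Serpinb6d and Serpinb6e on chromosome 13. Their signals lay between 22.3 and 45.4 on all arrays, which is between the 0.239 and the 14.7 percentile of all named probes. Serpinb13 (headpin) and the Serpinb3 genes (the mouse counterparts of the squamous cell carcinoma antigens) inhibit lysosomal cathepsins and are known from stratified epithelium. Yet Serpinb13 and the Serpinb3 genes measured singly were as dim in keratinocytes as elsewhere. Serpinb13 was at 37.8 and 40.2 in keratinocytes and 38.8 and 40.1 in mESCs, and Serpinb3a at 26.6 and 25.7 in keratinocytes and 23.3 and 22.4 in mESCs. The files hold no detection call, so silent means dim on these arrays and not absent.

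The proteases that clade B serpins can meet changed in a small part. Of 20 listed target proteases 2 were higher in high-KLF4 than in low-KLF4 cells on day 8 and 0 were lower. They were the epidermal kallikreins Klk8, at 848 and 1181 with high-KLF4 and 166 and 122 with low-KLF4 (2.82, SE 0.21, adjusted p = 0.000416), and Klk7, at 213 and 486 with high-KLF4 and 111 and 101 with low-KLF4 (1.61, SE 0.31, adjusted p = 0.0259). The median difference of the list was 0.09. Between keratinocytes and mESCs 10 of the 20 were higher and 1 lower.

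Of 8 measured genes of plasminogen activation 1 was higher on day 8 in high-KLF4 cells and 0 lower. It was Plaur, the urokinase receptor, at 1454 and 1947 with high-KLF4 and 571 and 515 with low-KLF4 (1.63, SE 0.23, adjusted p = 0.00685). The activators that Serpinb2 inhibits were not called, with differences of 0.08 for Plau and 0.27 for Plat. Of 24 serpins of other clades 0 were called in either direction on day 8, with a median difference of -0.04. The share of all probes was 2.71% higher and 1.29% lower, so 0 of 24 is near the background. At an adjusted p under 0.05 limma had called 5 of the 24 clade B members.

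Markers of other cells were read beside the day 8 result. Of 22 keratinocyte markers 10 were higher in high-KLF4 than in low-KLF4 cells and 0 lower, and their summed signal was 28256 and 41891 with high-KLF4 and 9777 and 14520.3 with low-KLF4, against 98580.2 and 98943 in keratinocytes and 6674 and 6696 in mESCs. Of 19 measured fibroblast markers 0 were called between cassettes, and their sum was 80799 and 33490.5 with high-KLF4 and 84978 and 31566 with low-KLF4, lower on the second array of each pair. By at least 1.3-fold, 3 members (Serpinb5, Serpinb2 and Serpinb1a) were higher and 1 (Serpinb10) lower on that second high-KLF4 array, and 6 (Serpinb1a, Serpinb2, Serpinb6a, Serpinb6b, Serpinb9 and Serpinb9b) were lower on that second low-KLF4 array. Of 20 leukocyte markers 2 were higher on day 8 with high-KLF4, their sum being 6612 and 8012 with high-KLF4 and 2424 and 3978 with low-KLF4. Of 14 measured trophoblast markers 5 were higher and 0 lower, with the sums given for day 8 above. Of 18 pluripotent markers 5 were higher and 2 lower, summing to 15595 and 18902 with high-KLF4 and 18559.6 and 20460.2 with low-KLF4. Of 12 endothelial markers 2 were higher and 0 lower, summing to 3153 and 3733 with high-KLF4 and 2499 and 2939 with low-KLF4. The part of these markers in the serpin differences was not tested.

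The day 8 calls rested on few arrays. Serpinb5 and Serpinb8 lost their call without the second low-KLF4 array of day 8, while the number of members called rose without the first one. A fit of the 4 day 8 arrays alone called 0 members and 0 of all 23410 probes. In all of these fits Serpinb9b, Serpinb5, Serpinb6c, Serpinb1a and Serpinb8 were higher in high-KLF4 cells.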

How the data were processed

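RMA in GeneSpring was used by the authors, a method that removes background, makes the arrays' distributions equal by quantiles and combines the probes of each transcript cluster. The deposited values are linear intensities between 20.2 and 19538.7. Array medians ran between 139 and 162, and with no detection call the number of arrays limits the precision. Log2 was taken of each value. Probes were named from the platform annotation: 21789 had 1 symbol, 1621 several and 5443 none. The genome build of the array annotation is not given in the sources used here, so chromosomes, gene order and windows are those of RefSeq for GRCm38.p6.

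One limma fit (limma 3.58.1, R 4.3.3) with a mean per group over 18 arrays gave the contrasts, with 6 residual and 2.25 prior degrees of freedom, and Benjamini-Hochberg adjustment ran over 23410 named probes at 0.05. A second fit of the 10 mCherry+ arrays had cassette and day as terms, with 5 residual and 2.08 prior degrees of freedom. Where an array is left out, the lone array of its group is assumed to vary like the others. The fit was tested on simulated data. Motifs were counted and windows aligned with Python 3.11.15 and Biopython 1.88, and figures drawn with matplotlib 3.10.9.

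The members, classes and lists (target proteases, plasminogen activation, other serpins, flanking genes and markers of 6 cell types) were chosen with earlier results of these data known. Named genes are all members, and of each list of proteases, plasminogen activation and serpins the largest called changes on day 8. The choice of Plau, Plat, Vps4b and Nqo2 for the text came after seeing their values. Alternatives included a second quantile normalization, leaving out the dimmest 30% of probes, limma-trend, the lowest-mean probe per gene (the same probe here), other fits and folds, a replicate block, the methods' t-test, and leaving out each array in turn. MEF, day 6 and TROP2-sorted arrays were not analysed here.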

Additional observations from a re-analysis of the deposited data

Results flagged for a closer look

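Serpinb9b and Serpinb6c are the 2 members called, at an adjusted p under 0.05 in limma, in the contrast of the day 8 cassette difference with that in the iPSC clones, a count that ran between 2 and 6 when 1 array was left out. On the log2 scale the day 8 difference exceeded the iPSC difference by 3.60 for Serpinb9b and by 2.61 for Serpinb6c.

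The 3 probes shared between Serpinb9d, Serpinb9e, Serpinb9f and Serpinb9g belong to no single member and entered no count of members. On day 18 their mean over the cassettes lay above the mESC mean by 3.62, 3.48 and 3.50 on the log2 scale.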

How the results depend on the processing

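For day 8 high-KLF4 against low-KLF4 (5 members called), leaving out 1 array at a time gave 3 to 9. The fit of the 4 day 8 arrays alone and the methods' t-test after adjustment each gave 0 members and 0 of all 23410 probes. At an unadjusted p under 0.05 the t-test had 3 members and 5.41% of probes, and the fit of 4 arrays 6 members and 7.51%. Leaving out 1 array at a time gave 7 to 9 members for keratinocytes against mESCs (10), 2 to 6 for the cassette difference on day 8 against that in iPSCs (2), with 6 without the first low-KLF4 and 5 without the first high-KLF4 array of day 8, and 0 to 1 for iPSCs against mESCs (1). For day 18 against day 8 (5), chosen after seeing the data, it gave 4 to 7. Without the dimmest 30% of probes the counts were 5 for keratinocytes against mESCs, 7 for low-KLF4 day 8 against keratinocytes (11) and 3 for day 18 against day 8, where the dim Serpinb9 copies are no longer tested. The methods' t-test gave 5 for keratinocytes against mESCs. For the counts without an array or without dim probes, here and above, and for this t-test, the share of all probes called is not given. These counts show how far the calls moved and are no result about the members. Serpinb8 also lost its day 8 call without the second high-KLF4 array (adjusted p = 0.101).

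The unclassed members numbered 2 with the iPSC clones in place of mESCs, 0 at 1.5-fold, 4 at 4-fold and 0 to 1 when 1 array was left out. At 4-fold 3 reprogramming-only members were left (Serpinb1a, Serpinb9b and Serpinb9e), and leaving out 1 array gave 7 to 8.

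Same-numbered arrays share only a number in the labels. The deviations of the 2 day 8 groups correlated at 0.735 and those of the other 5 pairs of groups between -0.033 and 0.021. The replicate block of the day 8 arrays gave 8 members, with Serpinb2 (adjusted p = 0.0313), Serpinb6a (0.0101) and Serpinb6b (0.0169) added and 12.6% of all probes called, and a block common to 8 arrays gave 2. No result reversed its direction, and 140 of 159 alternative counts were within 1.5 times the main one. That tally includes the lowest-mean probe, which is the same probe here and cannot change a count. It also includes fits over days in which no member was called either way. The cause of the changes was not tested. With 2 arrays a group, and 1 on days 2, 4 and 18, small differences are not resolved.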
